A study of Mus musculus with 2 samples.

Results

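Potassium channel genes were examined in open chromatin maps of the mouse cerebral cortex. The family was taken as every protein-coding gene of the GENCODE M21 annotation whose symbol begins with Kcn, which gave 94 of 21938 genes in 21 subfamilies. DNase-seq libraries, in which the enzyme DNase I cuts accessible DNA, had been made from the left cerebral cortex of 2 mice. Both were B6CASTF1/J females, 10 days old, with no treatment named in the labels. B6CASTF1/J animals are first-generation hybrids of C57BL/6J and CAST/EiJ, and reads of the parental alleles were not separated. The libraries are biological replicates 1 and 2 of 1 group, so no condition was compared, and spread between them joins animal and technical variation. Both carry the same donor identifier while the animals are numbered separately.

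Potassium channels let potassium ions leave or enter a cell down their electrochemical gradient, and thereby set the resting potential, end action potentials and pace repetitive firing. Voltage-gated channels open on depolarisation, inward rectifiers and tandem-pore channels carry resting currents, and calcium- or sodium-activated channels couple firing to ion entry. In the cortex, neurons express many pore-forming subunits side by side with auxiliary subunits that shape gating and placement, and astrocytes use an inward rectifier to clear potassium.

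The following promoters show what an open channel gene looked like at base level. Each sequence below is the stretch of up to 250 bases before the RefSeq start of the gene (GRCm38.p6 promoter table, the assembly of mm10), written 5′ to 3′ on the strand of the gene. Capitals mark bases that lay in footprints of both libraries, that is, in short stretches protected from cutting inside accessible DNA. Kcnj2, an inward rectifier, and Kcnip3, a calcium-binding partner of channels, were among the 5 promoters with most overlapping footprints. Kcna3, a delayed rectifier, and Kcnh1, an ether-à-go-go channel, were picked after their values were seen, for their dense footprints and for a motif match.
Kcnj2: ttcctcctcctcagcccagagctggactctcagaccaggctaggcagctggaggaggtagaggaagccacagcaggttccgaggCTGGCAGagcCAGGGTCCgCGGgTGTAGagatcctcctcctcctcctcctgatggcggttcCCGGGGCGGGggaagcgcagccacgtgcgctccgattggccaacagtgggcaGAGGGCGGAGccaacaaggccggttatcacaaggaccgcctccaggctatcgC
Kcnip3: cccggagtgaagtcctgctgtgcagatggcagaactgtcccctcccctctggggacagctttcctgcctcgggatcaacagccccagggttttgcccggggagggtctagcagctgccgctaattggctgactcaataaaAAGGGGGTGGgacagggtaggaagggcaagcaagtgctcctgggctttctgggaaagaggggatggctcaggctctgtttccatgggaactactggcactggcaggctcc
Kcna3: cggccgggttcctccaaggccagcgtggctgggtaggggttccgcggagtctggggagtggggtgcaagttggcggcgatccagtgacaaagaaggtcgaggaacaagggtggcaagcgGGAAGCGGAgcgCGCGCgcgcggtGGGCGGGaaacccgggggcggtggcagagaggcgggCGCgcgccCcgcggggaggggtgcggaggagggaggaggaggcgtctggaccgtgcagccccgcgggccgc
Kcnh1: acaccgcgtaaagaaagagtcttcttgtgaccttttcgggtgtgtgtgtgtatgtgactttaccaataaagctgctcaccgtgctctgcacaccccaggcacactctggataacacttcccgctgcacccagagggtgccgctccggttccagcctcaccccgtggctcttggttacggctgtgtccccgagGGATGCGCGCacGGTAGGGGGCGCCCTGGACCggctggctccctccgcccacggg
These stretches lie at chr11:111065914-111066163 on the plus strand (Kcnj2), chr2:127522095-127522344 on the minus strand (Kcnip3), chr3:107035912-107036161 on the plus strand (Kcna3) and chr1:192190527-192190773 on the plus strand (Kcnh1). In Kcnj2, 44 bases were footprinted in both libraries, and bases 148 to 156 match the SP motif GGGGCGGGG, with 8 of them in capitals. In Kcnh1, 30 bases were footprinted, and bases 208 to 216, all in capitals, match the CTCF core AGGGGGCGC. In Kcna3, 25 bases were footprinted and none of the 12 searched motifs matched the stretch. Kcnip3 had 10 footprinted bases in 1 run, and its matches to the NFY motif CCAATNNG (bases 120 to 127) and the AP1 motif TGANTCA (bases 129 to 135) lay outside it.

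Close to the same share of the family as of all genes had an open promoter. A promoter was called open when the stricter of the 2 deposited peak lists of each library held a peak within 500 bp of any annotated start of the gene. This was the case for 48 Kcn genes (51.1%), against 55.2% of all protein-coding genes. The larger peak lists of both libraries, which hold weaker peaks too, covered 64 Kcn genes (68.1%), against 61% of all genes, so that the order of the family and all genes turned with the list. No list held a promoter peak for 21 Kcn genes (22.3%), against 35% of all genes. In a bulk library, a promoter open in few cells and one weakly open in many cannot be told apart.

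Open promoters of the family carried low signal. Signal is the deposited height of the highest promoter peak, in units scaled by library. It was taken in each library over all starts of a gene, so the peaks could lie at different starts. The 48 open Kcn promoters had a median signal of 0.986 in replicate 1 and 1.55 in replicate 2, against 2.30 in replicate 1 and 3.46 in replicate 2 for all 12105 open promoters. On the mean of both libraries, the medians were 1.28 for Kcn genes and 2.89 for all genes, a ratio of 0.444. The mean signal was under the all-gene median in 43 of 48 open Kcn promoters (89.6%) and under the all-gene 25th percentile of 1.61 in 32 (66.7%). It exceeded the 75th percentile of 4.67 in 3 Kcn genes. The libraries ranked the promoters alike. Across the 48 genes the Pearson correlation of log2 signal was 0.96 and the Spearman correlation 0.95, given as a description, since genes share the libraries. Replicate 2 was higher at 47 of 48 Kcn promoters (97.9%), by a median log2 of 0.60, and at 97.3% of all open promoters, by a median of 0.56.

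**Figure D1:**
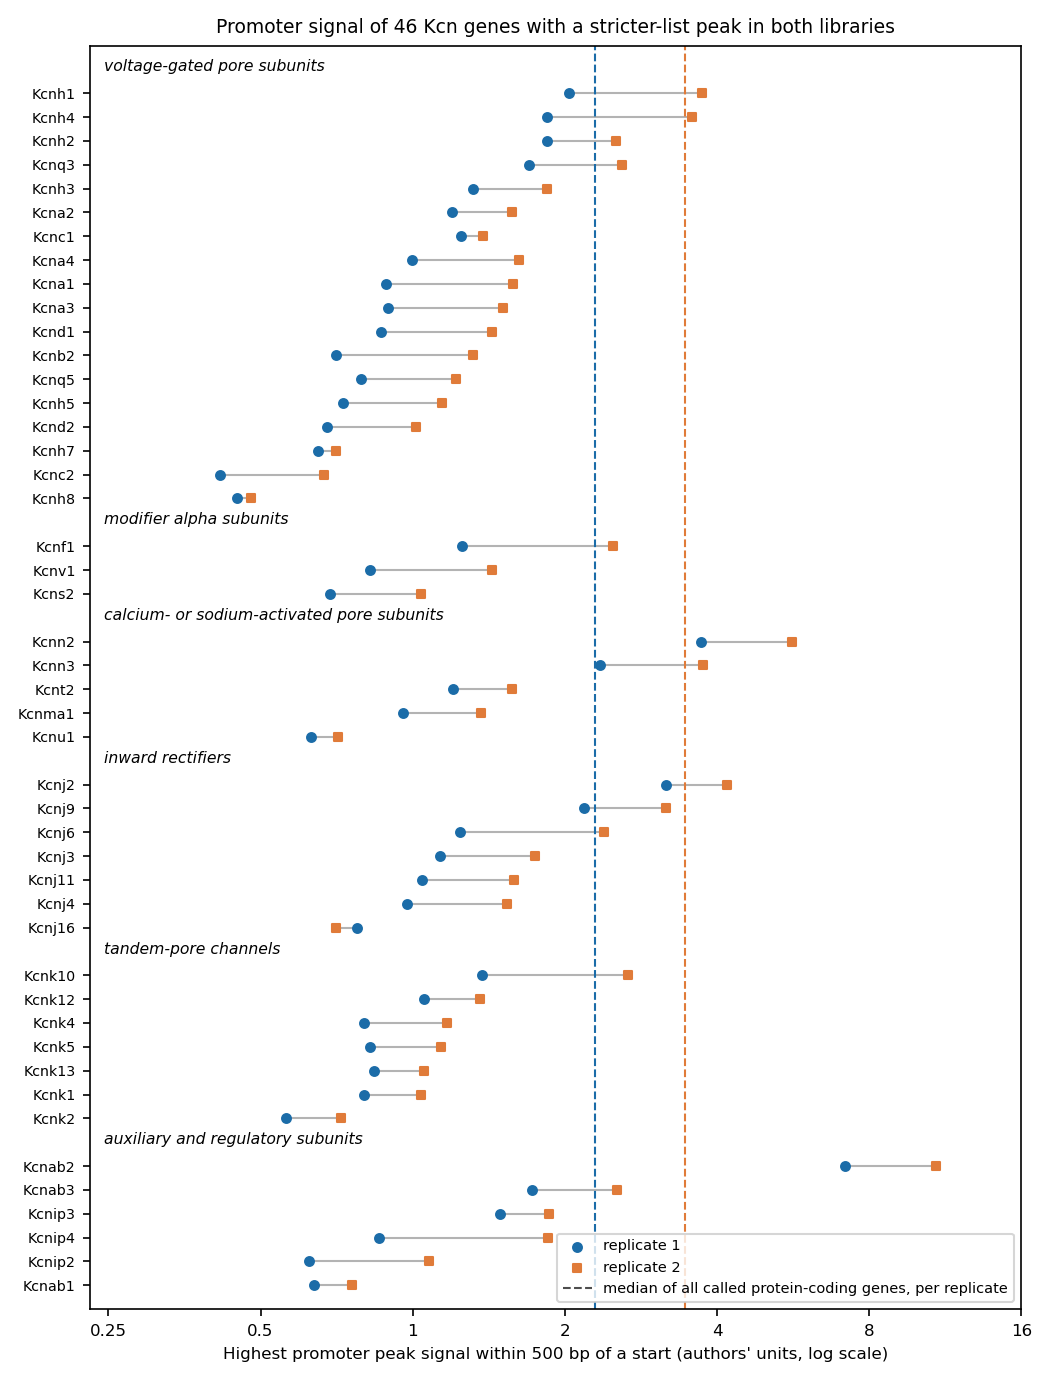
Promoter signal of 46 Kcn genes with a stricter-list peak in both libraries, on a log scale, grouped by role. Each row is a gene, circles are replicate 1, squares replicate 2, and dashed lines are the medians of all open protein-coding promoters (2.30 in replicate 1 and 3.46 in replicate 2). Most genes lie left of both lines, and Kcnab2 lies farthest to the right at 7.15 and 10.8.

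Voltage-gated pore subunits had the highest open share of the role groups in the stricter lists, 20 of 30 genes (66.7%), against 55.2% of all genes. In the larger lists of both libraries they had 25 of 30 (83.3%), against 61% of all genes. That share was below the 7 of 8 (87.5%) of calcium- or sodium-activated pore subunits, counted with Kcnu1. The median mean signal of the voltage-gated pore subunits was 1.27. Kcnc1, which gives fast-spiking neurons brief action potentials, had 1.25 in replicate 1 and 1.38 in replicate 2. These values are not a pair from the same promoter. The Kcnc1 peak lay 25984 bp from the start of the gene record in replicate 1 and at that start in replicate 2. Kcnc2, a relative of Kcnc1, had 0.415 and 0.667, near the bottom of the family in both libraries. Kcnc4 had only a larger-list peak in replicate 2, of 0.538.

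Kcnh genes, the ether-à-go-go, erg and elk channels, were open in 7 of 8 cases (87.5%), against 55.2% of all genes. Kcnh1 had 2.03 in replicate 1 and 3.73 in replicate 2, and Kcnh4 had 1.84 and 3.56, while Kcnh2, the erg channel known for cardiac repolarisation, had 1.84 and 2.52. Kcnh8 had the lowest mean signal of the open promoters, with 0.450 in replicate 1, where Kcnc2 was lower, and 0.478 in replicate 2, and Kcnh6 had a stricter peak in replicate 1 alone (0.920), with a larger-list peak of 0.743 in replicate 2. Kcnb2, a delayed rectifier of cell bodies and dendrites, was open with 0.706 and 1.32.

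Of the 8 Kcna genes, 4 were open (50%, against 55.2% of all genes) and alike in signal. Kcna2, a delayed rectifier of axons, had 1.20 in replicate 1 and 1.57 in replicate 2, and Kcna4, an A-type channel, had 0.996 and 1.62. Kcna1, which joins Kcna2 in axonal channels, had 0.886 and 1.58, and Kcna3 had 0.892 and 1.51. Replicate 2 alone held stricter peaks for Kcna6 (1.27) and Kcna10 (0.796), and replicate 1 alone for Kcna7 (0.699). Kcna5 had no peak in any list. The 4 open genes overlapped each other in their range over the libraries. Among the A-type Kcnd genes, Kcnd1 had 0.865 and 1.43 and Kcnd2 had 0.678 and 1.02, whereas Kcnd3 had a stricter peak in replicate 2 alone (0.735).

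Kcnq genes ranged from open to closed. Kcnq3, a subunit of the M-current that restrains repetitive firing, had 1.69 in replicate 1 and 2.59 in replicate 2, and Kcnq5 had 0.789 and 1.22. Kcnq1, known from heart and epithelia, had no peak in any list, and the nearest stricter peak to one of its starts was over 5000 bp away in both libraries.

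Modifier alpha subunits, which form no channel alone but join Kcnb subunits, were open in 3 of 10 genes (30%), against 55.2% of all genes. Kcnf1 had 1.25 in replicate 1 and 2.49 in replicate 2, Kcnv1 had 0.823 and 1.43, and Kcns2 had 0.685 and 1.04. None of the 4 Kcng genes was open in both libraries. Kcng3 (0.728) and Kcng2 (0.622) had stricter peaks in replicate 2 alone, as did Kcns3 (0.834), and Kcng1 had a larger-list peak of 0.591 in that library. Kcng4, Kcns1 and Kcnv2 had none.

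Calcium- or sodium-activated pore subunits were open in 5 of 8 genes (62.5%), against 55.2% of all genes. The group counts Kcnu1, which was placed in it by subfamily and not by its activation. Kcnn2, a small-conductance channel of the afterhyperpolarisation, had 3.72 in replicate 1 and 5.62 in replicate 2, at an alternative start 290441 bp into the gene. Kcnn3 followed with 2.35 and 3.75. Kcnn1 had a stricter peak in replicate 2 alone, of 2.15, the highest value among all such members, and a larger-list peak of 1.09 in replicate 1. Kcnn4, known from blood and epithelial cells, had none. Kcnma1, the large-conductance channel, had 0.955 and 1.36. The sodium-activated Kcnt2 had 1.20 and 1.57, while Kcnt1 was in the stricter list of replicate 2 alone (0.773). Kcnu1, known as a sperm channel, had a peak in both libraries at an alternative start, of 0.630 and 0.713.

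Inward rectifiers were open in 7 of 15 genes (46.7%), against 55.2% of all genes. Kcnj2, which stabilises the resting potential, led with 3.18 in replicate 1 and 4.19 in replicate 2. Of the G-protein-gated members, Kcnj9 had 2.18 and 3.17, Kcnj6 had 1.24 and 2.39, and Kcnj3 had 1.13 and 1.74, while Kcnj5, known from the heart, was in the stricter list of replicate 2 alone (0.440). Kcnj11, a pore of ATP-sensitive channels, had 1.04 and 1.58, and Kcnj8, its counterpart in vascular cells, had only larger-list peaks of 0.367 and 0.303. Kcnj4 had 0.975 and 1.54, and Kcnj12 had a stricter peak in replicate 2 alone (0.735). Kcnj16 had 0.775 and 0.705, the only open member with the lower value in replicate 2. Kcnj15 had a larger-list peak of 0.401 in replicate 1. Kcnj1, a kidney channel, Kcnj13, known from choroid plexus and retina, and Kcnj14 had none.

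Kcnj10, the inward rectifier by which astrocytes take up potassium, stood apart. In replicate 1 its stricter peak had 1.36, and replicate 2 had no stricter peak there, yet the larger list of replicate 2 held a peak of 1.61 at the same start. The lowest false discovery rate (FDR) of the cut rate near a start was 5.77e-23 in replicate 1 and 0.00108 in replicate 2, so a height in replicate 2 above that of replicate 1 came with a weaker FDR. The surrounding region showed the same contrast. The windows of the neighbours Kcnj9 and Kcnj10 held 22 and 21 stricter peaks of replicate 1 that replicate 2 lacked, where the median of all genes was 0 and the highest 25. These windows overlap, and all peaks counted for Kcnj10 were also counted for Kcnj9. Those of Kcnj10 spanned chr1:172303002-172344201, with a median signal of 0.553. Of them, 4 overlapped a larger-list peak of replicate 2, with a median signal of 1.71 there. The cause was not tested.

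Tandem-pore channels, which carry background currents, were open in 7 of 14 genes (50%), against 55.2% of all genes. All 7 had a mean signal under the all-gene median. Kcnk10, a mechanosensitive channel, had 1.37 in replicate 1 and 2.66 in replicate 2. Kcnk12 had 1.05 and 1.36, and Kcnk4, Kcnk5, Kcnk13 and Kcnk1 had means of 0.985, 0.980, 0.945 and 0.920. Kcnk2, a relative of Kcnk10, was lowest with 0.560 and 0.720. Kcnk3, an acid-sensitive channel, and Kcnk6 had larger-list peaks in replicate 2 alone, of 0.758 and 0.531, and Kcnk16, known from the pancreas, one of 0.429 in replicate 1 alone. Kcnk9, the closest relative of Kcnk3, had none, nor had Kcnk7, Kcnk15 and Kcnk18.

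Auxiliary and regulatory subunits were open in 6 of 17 genes (35.3%), against 55.2% of all genes, and the split followed the subfamily. All 3 Kcnab genes, cytosolic beta subunits of Kcna channels, were open. Kcnab2 had the highest signal of the family, 7.15 in replicate 1 and 10.8 in replicate 2 (SD 2.61, n = 2), above 97.8% of open promoters. A start of Nphp4 lay within 500 bp of that peak as well, so the signal cannot be given to either gene alone. Kcnab3 had 1.72 and 2.53, and Kcnab1 had 0.636 and 0.758. Of the Kcnip genes, partners of Kcnd channels, Kcnip3 had 1.49 and 1.86, Kcnip4 had 0.858 and 1.85, Kcnip2 had 0.623 and 1.08, and Kcnip1 had a larger-list peak of 0.394 in replicate 1 alone. No Kcne or Kcnmb gene was open in both libraries. Kcne3 (0.629), Kcnmb4 (1.05), the beta subunit of neuronal Kcnma1 channels, and Kcnmb2 (0.508) had stricter peaks in replicate 2 alone. Kcne1, Kcne1l, Kcne2, Kcne4, Kcnmb1, Kcnmb3 and Kcnrg had none.

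**Figure D2:**
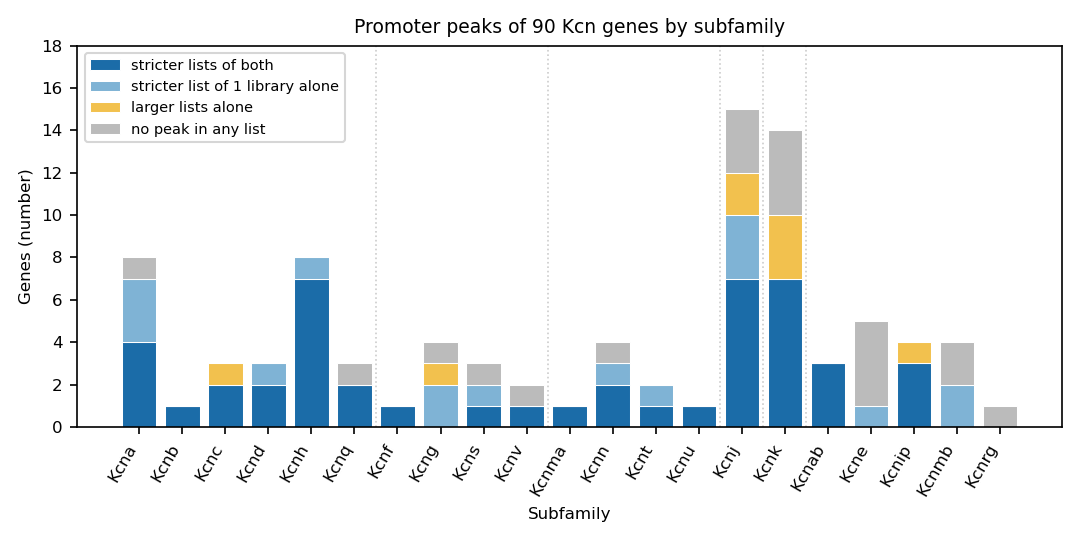
Number of Kcn genes per subfamily by promoter status, for 90 genes, from a stricter-list peak in both libraries (46 genes) and in 1 library (16) to larger-list peaks alone (8) and no peak in any list (20). Kcnh and Kcnab genes are almost all open, while no Kcne, Kcng, Kcnmb or Kcnrg gene is open in both libraries. Dotted lines separate the roles.

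Many members fell between open and closed. A stricter peak in replicate 2 alone was found at 14 Kcn promoters (14.9%), against 3.82% of all genes, and in replicate 1 alone at 3, against 0.848%. Of the 65 Kcn genes with a stricter peak in any library, 17 had it in 1 library (26.2%), against 7.80% of all such genes. Of the 14, 12 had a larger-list peak in replicate 1, of 0.263 to 1.09, against stricter peaks of 0.440 to 2.15 in replicate 2. The open share was also read by the larger-list signal of replicate 2, over genes with or without a stricter peak. Among Kcn genes with such a signal from 1 to 2, 26 of 29 were open in both libraries (89.7%), against 90.2% of all genes in that range. From 2 to 4, 11 of 12 Kcn genes were open (91.7%), against 99.7% of all genes. Below 1, 7 of 25 Kcn genes were open (28%), against 36.7% of all genes. Those 25 include genes with larger-list peaks alone, such as Kcnj8 and Kcng1, which could not count as open. At the edge of the 500 bp window, Kcnj4 was counted with peaks 494 and 500 bp from a start, and replicate 1 peaks at 513 bp (Kcns3) and 610 bp (Kcnd3) were left out.

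The open share of the family differed most from that of all genes at CpG-rich promoters. All genes were divided into 3 equal classes by the ratio of observed to expected CpG within 500 bp of the start of the gene record. In the CpG-rich class, 13 of 23 Kcn promoters were open (56.5%), against 89.6% of all promoters. In the middle class, 28 of 44 were open (63.6%), against 63.0%, and in the CpG-poor class 7 of 27 (25.9%), against 12.9%. These counts take a peak at any start, while CpG was measured at the start of the gene record. With stricter peaks at that start alone, 3 of 27 Kcn genes of the CpG-poor class were open (11.1%), against 4.32% of all genes. Kcn promoters of the CpG-rich class had at least 65% GC in 14 cases, of which 7 were open (50%), against 84.7% of all such promoters. At 60 to 65% GC, 5 of 8 in this class were open (62.5%), against 90.6%, and below 60% GC 1 of 1, against 93.8%. Of the 21 members with no peak in any list, 16 were in the CpG-poor class and 2 in the middle class. Kcnk9 and Kcnk15 had CpG-rich starts without a peak. Whether GC content affected the recovery of these fragments was not tested.

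**Figure D3:**
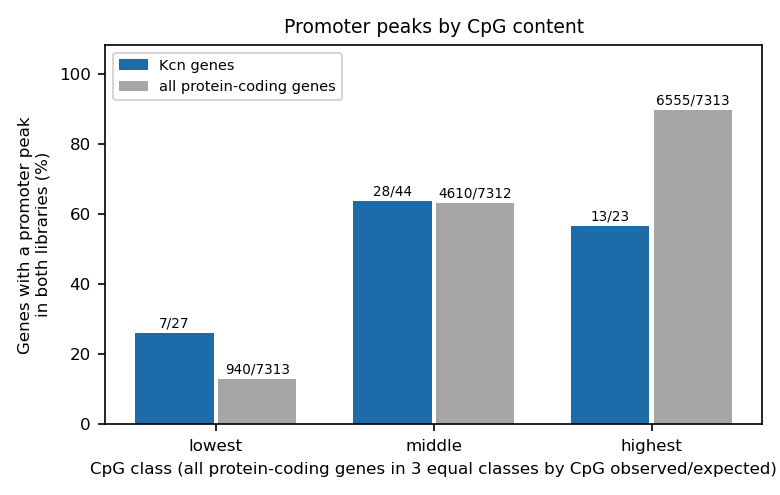
Share of promoters with a stricter-list peak in both libraries, for Kcn genes (left bars) and all protein-coding genes (right bars), by class of promoter CpG observed over expected (lowest, middle and highest). Numbers above the bars are open genes over all genes of that class. The bars differ most in the highest class, at 56.5% and 89.6%.

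Alternative starts carried part of the open promoters. Of the 94 genes, 75 had more than 1 annotated start, up to 15. For 8 of the 48 open genes (16.7%), no peak of both libraries lay at the start of the gene record, against 10.3% of all open genes. These were Kcna2, Kcnc2, Kcnj16, Kcnk2, Kcnk4, Kcnk10, Kcnma1 and Kcnu1. At Kcnma1, the peak lay 10189 bp from the start of the gene record in replicate 1 and 10173 bp in replicate 2. Counting the gene record start alone, 40 Kcn genes were open (42.6%), against 49.5% of all genes.

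Footprints were found near a start in both libraries at 57 Kcn genes (60.6%), against 58.2% of all genes, and overlapped between the libraries at 48 (51.1%), against 54% of all genes. Within 250 bp of a start, the footprint shares were 54.3% of Kcn genes and 55.9% of all genes, and at the start of the gene record 50% and 52.0%, so this order turned too. Of the 48 open Kcn promoters, 45 had footprints in both libraries (93.8%), against 98.7% of all open promoters. The exceptions were Kcnd2, with 9 in replicate 1 and 0 in replicate 2, Kcnj4, with 0 in both, and Kcnc2, with 0 and 1. Footprint numbers varied widely. Kcnc1 had 19 in replicate 1, the most of any member, and 13 in replicate 2. Its mean signal of 1.31 came from peaks at different starts. Kcnq5 had 17 and 8 footprints. Kcnn2 had 15 and 10, and Kcnj2 had 8 and 10, and in each of these genes 7 footprints of replicate 1 overlapped a footprint of replicate 2. The median open Kcn promoter had 5 footprints in each library, as did the median open promoter of all genes.

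**Figure D4:**
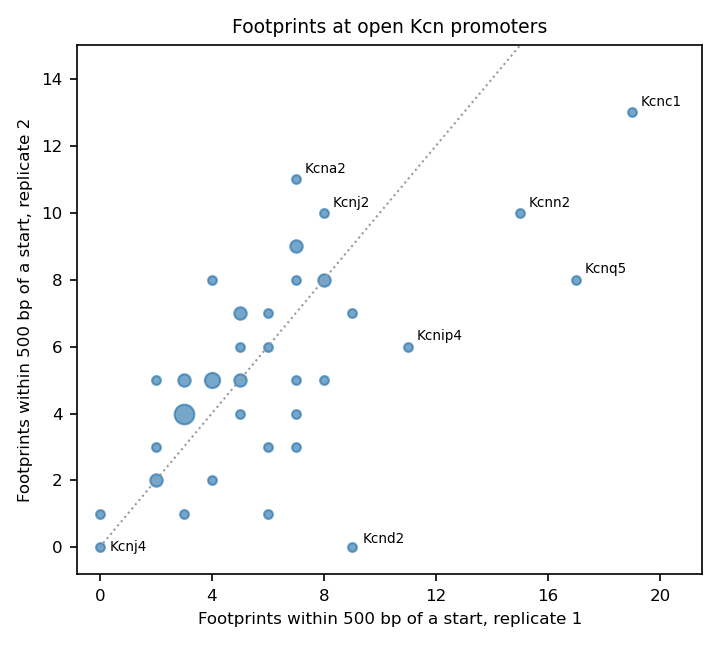
Number of footprints within 500 bp of a start in replicate 1 (x axis) and replicate 2 (y axis) for 46 open Kcn promoters. Points grow with the number of genes at the same place, and the dotted line marks equal numbers. Kcnc1 lies at 19 and 13, and Kcnd2 at 9 and 0.

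Few searched motifs occurred in Kcn promoter footprints of both libraries. The letters of each motif were looked for on either strand within footprints plus 5 bp on each side. Among the 57 Kcn genes with footprints in both libraries, the SP letters GGGGCGGGG occurred in both libraries at 4 (7.02%), against 16.7% of 12767 genes, and Kcna4, Kcnj2 and Kcnj10 held them. The NFY letters CCAATNNG occurred in both libraries at Kcna2 and Kcnh6 (3.51%), against 5.29%, and the CTCF core AGGGGGCGC at Kcnh1 (1.75%), against 2.37%. The letters of NRF1 (GCGCATGCG), CRE (TGACGTCA), EGR (GCGTGGGCG), ETS (CCGGAAGT), MEF2 (CTAAAAATA), AP1 (TGANTCA), NFI (CTTGGCA) and both parts of the REST site (TCAGCACC and GGACAGCG) occurred in both libraries at none, against 0.0313% (MEF2) to 3.58% (CRE) of all genes. In footprints of 1 library alone, NRF1 letters occurred at Kcnk5, NFI letters at Kcnj15 and Kcnh8, and 1 REST part each at Kcns2 and Kcnh5. In the 300 base RefSeq promoter windows, whether footprinted or not, SP letters were in 13.8% of Kcn windows, against 11.4% of all windows. Matches of different motifs can overlap, and a match describes letters only.

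Distal accessible sites were denser around the median Kcn gene than around the median gene. A shared distal peak is a stricter peak of replicate 1 overlapping a stricter peak of replicate 2, with its midpoint over 1 kb from any annotated start, and each gene was given its body and 50 kb on each side. The median Kcn gene had 3 such peaks, against 2 for all genes, or 1.87 per 100 kb, against 1.14. The median density was higher in voltage-gated calcium channel alpha genes (2.27), and lower in sodium channel alpha (1.42) and GABA-A receptor subunit genes (1.30). Kcn gene bodies were longer, with a median of 30.8 kb, against 17.4 kb. Only Kcna3, Kcna4, Kcna7 and Kcnk6 had none (4.26% of the family), against 26.2% of all genes. No sodium or calcium channel alpha gene lacked such a peak, while 26.3% of GABA-A receptor subunit genes did. The windows held 361 peaks, with a peak in several windows counted once. Of these, 162 lay inside a Kcn gene (44.9%) and 219 had a Kcn gene as the nearest coding start (60.7%). Overlapping peaks of replicate 1 were counted separately, so peaks are not all separate sites. An example is the pair chr14:23791241-23791460 and chr14:23791241-23791700 in Kcnma1. Footprints of both libraries lay in 327 of the 361 (90.6%), against 88.2% of all 31956 shared distal peaks. Their median signal was 0.872 in replicate 1 and 1.17 in replicate 2, against 0.803 and 0.985 for all shared distal peaks.

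Kcnma1 had the most distal peaks, 17, with 16 in its own body, followed by Kcnj6 with 14, and Kcnab2, Kcnip1, Kcnip4 and Kcnq3 with 11 each. Dense windows were those of Kcnj10, with 6.02 distal peaks per 100 kb, Kcnab2 (5.88), Kcnc4 (5.77) and Kcna10 (5.33). Some members without an open promoter had many distal peaks. Kcnip1 had a larger-list promoter peak in 1 library alone yet 11 distal peaks, and Kcnq1, without any promoter peak, had 10. By role, median densities ran from 1.24 per 100 kb for tandem-pore channels to 2.32 for calcium- or sodium-activated channels. Across genes, the Spearman correlation of gene length with the number of distal peaks was 0.54 in the family and 0.37 over all genes, as a description.

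**Figure D5:**
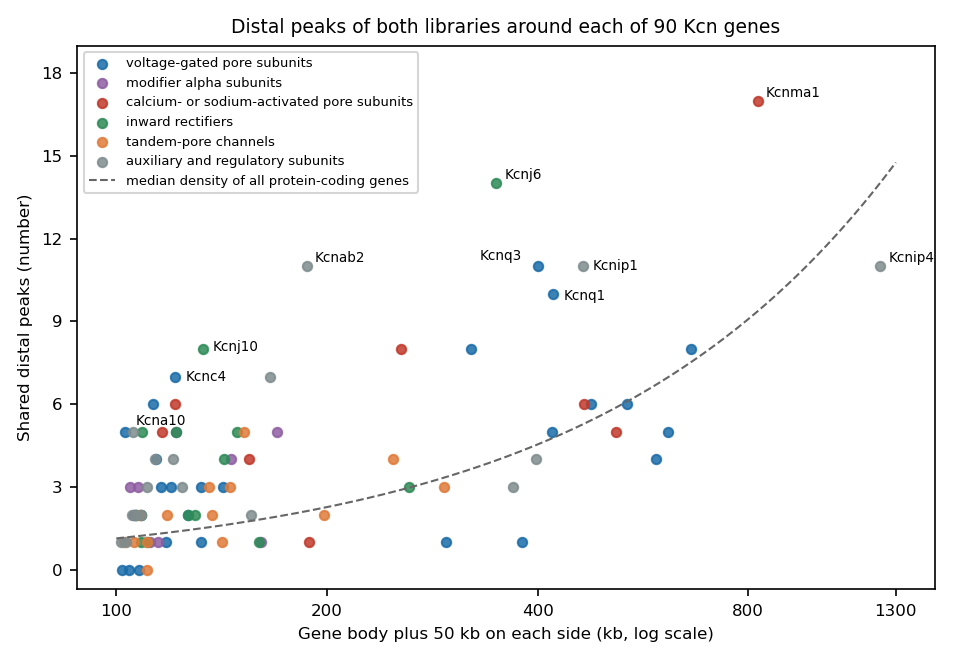
Shared distal peaks of each of 90 Kcn genes (y axis) against the length of its window, the gene body plus 50 kb on each side (x axis, log scale), coloured by role. The dashed line is the median density of all protein-coding genes, 1.14 per 100 kb. Most members lie above it, and Kcnma1 is highest with 17 peaks.

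The strongest distal site lay on chr8:70865661-70865940, 2543 bp from a start of Kcnn1, where replicate 1 reached 6.43 and replicate 2 reached 11.1. It exceeded the Kcnn1 promoter in both libraries. Strong intronic sites lay in Kcnab2 (chr4:152434921-152435120, 2.77 and 4.06) and Kcnq3 (chr15:66239161-66239560, 2.57 and 3.99). The Kcnq3 site was stronger in each library than the promoter of its gene. Other strong sites in the windows lay nearest to the start of another gene, such as Prom2 in the window of Kcnip3 (4.52 and 5.77). These sites were chosen for their signal.

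Counts of peaks found in 1 library differed between windows, which also differed in length. Apart from the Kcnj9 and Kcnj10 region, the largest number in replicate 1 was 6, at Kcnn2. In replicate 2 the most were 15 at Kcnip4, 10 at Kcnh1 and 8 at Kcnma1, where the median of all genes was 1 and the highest 79. These windows were long, with 1235 kb at Kcnip4, 419 kb at Kcnh1 and 825 kb at Kcnma1. Kcnn1 had 6 such peaks in a window of 121 kb. All 8 of the Kcnma1 peaks, 9 of the 15 at Kcnip4 and 7 of the 10 at Kcnh1 overlapped a larger-list peak of replicate 1.

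Other channel families and partners gave a scale for these counts. Stricter promoter peaks in both libraries were found at 4 of 10 voltage-gated sodium channel alpha genes, 4 of 10 voltage-gated calcium channel alpha genes and 10 of 19 GABA-A receptor subunit genes. These shares were 40%, 40% and 52.6%, against 55.2% of all protein-coding genes. The median mean signal of open genes was 1.28 in Kcn genes, against 1.27 in the sodium channel, 2.89 in the calcium channel and 1.12 in the GABA-A receptor genes. Larger lists of both libraries gave 64 Kcn genes (68.1%), against 5 of 10 sodium channel, 8 of 10 calcium channel and 12 of 19 GABA-A receptor genes. For all protein-coding genes the share was 61.0%. The order of the families thus turned with the list. The stricter list of replicate 2, whatever replicate 1 held, gave 62 of 94 Kcn genes (66.0%), against 59.0% of all protein-coding genes. It gave 6 of 10 sodium channel, 7 of 10 calcium channel and 12 of 19 GABA-A receptor genes. Of 19 genes whose proteins work with potassium channels, 10 were open (52.6%), against 55.2% of all protein-coding genes. Vapb and Vapa, membrane proteins that bind Kcnb channels, were highest with means of 6.94 and 5.62, and Abcc9, Amigo1, Lrrc55 and Hcn2 had no peak in any list.

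The tissue label was read against marker genes by the same rule, which called 55.2% of all protein-coding genes open. Promoters were open in both libraries at 5 of 6 pan-neuronal markers, 2 of 6 of cortical excitatory neurons, 1 of 6 of interneurons, 4 of 6 of astrocytes, 3 of 6 of the oligodendrocyte lineage, 1 of 6 of microglia, 2 of 6 of vascular cells and 1 of 6 of choroid plexus and ependyma. In replicate 2 on its own, 4 of the 6 excitatory markers had a stricter peak, against 59.0% of all genes. All 6 had a peak in a larger list, while 35.0% of all genes had a peak in no list. Snap25 had 2.49 in replicate 1 and 3.04 in replicate 2, and Neurod6, of excitatory neurons, had 1.55 and 2.02. Among the choroid plexus and ependyma markers Ttr, Clic6, Folr1, Kl and Otx2 had no peak in any list, and Foxj1 had 4.55 and 6.63. The part of cell types other than neurons in the Kcn values was not tested. Signal values were whole multiples of 1 step per library, within 0.05 of a step. The open Kcn promoters stood at 60 to 1034 steps in replicate 1 and 63 to 1431 in replicate 2. If a step is 1 cut, which the files do not state, the counting error at the median promoter was 8.38% and 6.98%.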

How the data were processed

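DNase-seq libraries of 2 mice were read from files made by the authors on mm10, each from the alignments of its own library, per the file descriptions; replicates were not pooled. Aligner, callers and thresholds are not given in the sources used here. Peak signal, as deposited, is scaled by library on a scale not given, so the libraries may not share a common scale, and medians are also given per library. The p-value column of the deposited footprints held 0.01 throughout and only positions were used; a deposited list gives the FDR of the cut rate per position. Depth is unknown; if 1 step of signal is 1 cut per M (mega) tags, replicate 1 held 145 M tags and replicate 2 held 132 M.

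Computed here: genes and starts from GENCODE M21, a window of 500 bp, overlap of at least 1 bp, and distal peaks over 1 kb from any start, with Python 3.11.15, pandas 2.3.3 and numpy 2.4.6. Scoring was tested on simulated data. The smaller list of each library is called stricter. With 1 group there is no test between groups, so counts and medians stand beside all protein-coding genes. Members and lists were chosen with earlier results of these data known. Values were named for the top 2 members of Kcna, Kcnb, Kcnc, Kcnd, Kcnj, Kcnk and Kcnq, the top of each other subfamily, the 10 highest, members in 1 list alone, and the extremes by distal peaks; other values named were chosen after they were seen. Promoter sequences are RefSeq's on GRCm38.p6 and matched 69 of the 94 genes; those of Kcnc1 and Kcnab2, also in the rule for sequences, are not shown. Some members are counted in the totals but not reported here by name or in the figures. Alternatives changed the list, the peak strength, the window and start for peaks and footprints, the overlap, the flank and the libraries.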

Additional observations from a re-analysis of the deposited data

How the results depend on the processing

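The count of open Kcn promoters stayed within 1.5 times of 48 under the larger lists, other windows and the gene record start, and lay between 51 and 62 with 1 library left out. With the stronger 50% of peaks it was 31 (33.0%), against 48.9% of all genes. The Kcn share was above that of all genes under the larger lists (68.1%, against 61.0%), without replicate 1 (66.0%, against 59.0%) and, in an alternative added after the data were seen, with the stricter list of one library and the larger list of the other (67.0%, against 59.0%); under the other settings it was below. Kcn genes with footprints in both libraries numbered 51 to 63 with windows of 250 bp and 1 kb, 47 at the gene record start, and 59 to 68 with 1 library left out. The median Kcn promoter signal was under that of all genes in every setting run, from 0.986 without replicate 2 to 1.55 without replicate 1. The median number of distal peaks per Kcn gene was 6 with the larger lists, 2 with the stronger 50% of peaks, 0, 2 and 5 with flanks of 0, 20 and 100 kb, and 4 to 5 with 1 library left out; for all genes it was 3, 1, 0, 1, 3 and 2. Density was 3.57 per 100 kb with the larger lists, 0 without flanks, and 2.16 to 2.97 with 1 library left out, against 2.40, 0 and 1.55 to 1.85 for all genes. Larger lists gave 7 of 8 Kcna and 11 of 15 Kcnj genes, and the gene record start gave 4 of 14 Kcnk genes. No paired analysis was possible because the study has 1 group. Intervals and counting errors leave out any spread between animals, and 2 libraries limit every statement on replicate spread.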
